A study of Mus musculus with 2 samples.

Results

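The miRs encoded within the Hox clusters, miR-10a, miR-10b, miR-196a, miR-196b and miR-615, were examined in the sperm small RNA of naive WT mice. An entry of the deposited tables was kept when its name, without the species prefix, the arm (5p or 3p) and the copy number, equalled 1 of these 5 names. This gave 11 of the 1886 mature miR entries, from 6 hairpins, and none of the 11 joined the names of several miRs. The miRs were chosen with their abundance in these data already known, so the levels below are a description and carry no test. Sperm that swam out of the dissected epididymis, treated with a hypotonic buffer against epithelial cells, came from wild-type C57BL/6J males aged 3 months that received no treatment, and RNA from 2 independent biological replicates was sequenced as 2 libraries of 1 condition. The sources used here do not say how many mice each replicate held. The names under which the counts were deposited carry a tag that refers to a time after treatment, while the labels describe the mice as naive, and this was not resolved.

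Hox genes encode the transcription factors that give the cells of an embryo their position along the body axis, and in mammals they lie in 4 clusters in which the order of the genes follows the order of their domains along that axis. The miRs in these clusters can be transcribed together with their neighbours and repress mRNAs, among them those of Hox genes. A miR is cut from a hairpin whose 2 arms each give a short RNA, and the mRNAs it recognises are set mainly by its seed, bases 2 to 8 from the 5′ end. miR-10 is the ancient miR next to the Hox4 genes, miR-196 lies next to the Hox9 genes, and miR-615 lies in an intron of Hoxc5. miR-196 is known to direct cleavage of the Hoxb8 mRNA.

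The mature sequences, from RefSeq (GRCm38.p6), are given here because 2 pairs of them can be told apart by 1 base only. All 11 entries were found in the RefSeq set by name. In the lines below, the seed is in capitals.

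miR-10a-5p: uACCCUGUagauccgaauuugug
miR-10b-5p: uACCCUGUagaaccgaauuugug
miR-196a-5p: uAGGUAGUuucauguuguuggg
miR-196b-5p: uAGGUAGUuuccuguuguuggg
miR-615-3p: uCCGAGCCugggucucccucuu
miR-10a-3p: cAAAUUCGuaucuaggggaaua
miR-10b-3p: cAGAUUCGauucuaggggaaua
miR-196a-1-3p: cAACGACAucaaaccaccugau
miR-196a-2-3p: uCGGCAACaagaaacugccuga
miR-196b-3p: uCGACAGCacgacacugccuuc
miR-615-5p: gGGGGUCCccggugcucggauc

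miR-10a-5p and miR-10b-5p share the seed ACCCUGU and differ by U12A, with miR-10a-5p first and positions counted from the 5′ end. miR-196a-5p and miR-196b-5p share the seed AGGUAGU and differ by A12C, so that in both pairs the base that separates the members is at position 12. The 3p arms of miR-10a and miR-10b differ at 3 of 22 bases (A3G, U9A and A10U), the first of which lies in the seed. The 3p arms of the miR-196 hairpins and both arms of miR-615 each have a seed that no other member has. Within a pair, a read can be told apart by the base at position 12 only. The authors allowed no mismatch in their first mapping step, which was to miR and piRNA sequences, and 1 in the later ones. Which step gave the deposited counts is not stated in the sources used here, so the split within a pair rests on an unknown tolerance at that base.

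In the GENCODE annotation of GRCm38, the build that the submitters' processing notes name, the hairpins lie on 4 chromosomes. Mir10a lies at chr11:96317165-96317274 on the plus strand, 1496 bases before the coding part of Hoxb4, and is in no other annotated transcript. Mir10b lies at chr2:74726070-74726137 on the plus strand, 1142 bases before the coding part of Hoxd4, in intron 4 of 5 of a Hoxd4 transcript and intron 1 of 2 of a Hoxd3 transcript. Both miR-10 hairpins thus stand just ahead of the coding part of a Hox4 gene. Mir196a-1 lies at chr11:96265164-96265265 (plus strand), 6277 bases before the coding part of Hoxb9, and in the same cluster as Mir10a. Mir196a-2 lies at chr15:102973350-102973434 (plus strand), between Hoxc10 and Hoxc9 and within an intron of a non-coding Hoxc5 transcript. Mir196b lies at chr6:52230081-52230165 (minus strand), between the coding parts of Hoxa10 and Hoxa9, in an intron of 1 and over exons of 2 non-coding transcripts of Hoxa9. Mir615 lies at chr15:103014910-103015001 (plus strand), in the single intron of the coding Hoxc5 transcript. The map of the clusters shows that the miR-196 hairpins sit between the genes of groups 9 and 10 or, where Hoxb lacks a group 10 gene, ahead of Hoxb9.

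**Figure D1:**
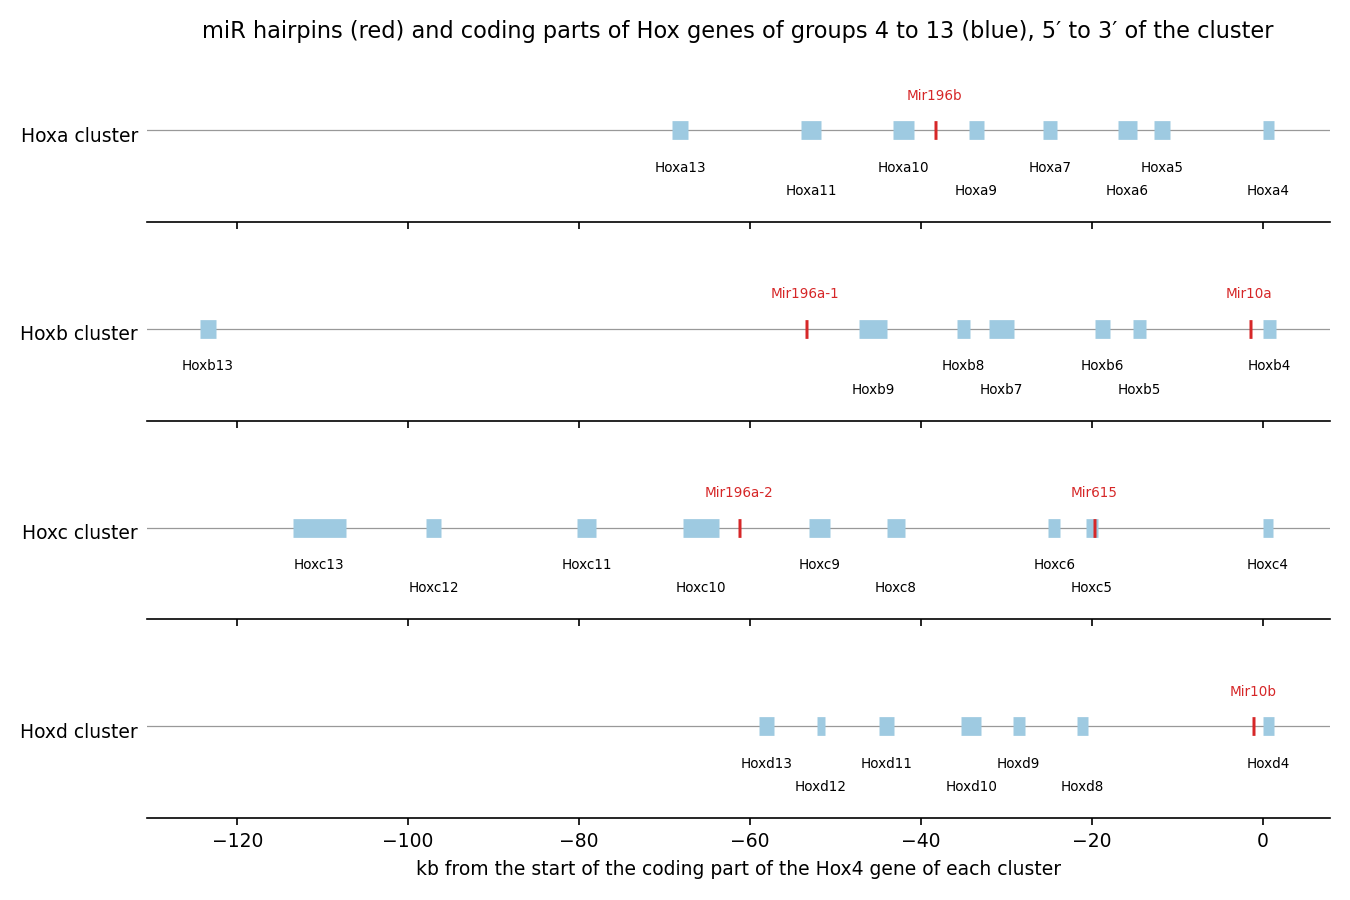
Positions of the 6 hairpins (red) and of the coding parts of the Hox genes of groups 4 to 13 (blue) in the 4 clusters, in kb from the start of the coding part of the Hox4 gene. Mir10a and Mir10b stand 1496 and 1142 bases before the coding parts of Hoxb4 and Hoxd4.

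The hairpins are shown with their arms in capitals because the counts below differ so strongly between the arms. RefSeq sequences were used for 5 of the 6 hairpins.

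Mir10a: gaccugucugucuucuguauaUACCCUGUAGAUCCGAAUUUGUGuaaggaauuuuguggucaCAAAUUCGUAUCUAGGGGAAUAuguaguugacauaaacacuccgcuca
Mir10b: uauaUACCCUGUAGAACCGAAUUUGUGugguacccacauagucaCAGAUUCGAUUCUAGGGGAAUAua
Mir196a-1: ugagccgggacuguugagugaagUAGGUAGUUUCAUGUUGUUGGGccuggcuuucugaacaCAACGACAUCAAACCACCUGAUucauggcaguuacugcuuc
Mir196a-2: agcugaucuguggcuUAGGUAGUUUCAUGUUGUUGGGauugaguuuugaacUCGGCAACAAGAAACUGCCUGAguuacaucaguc
Mir196b: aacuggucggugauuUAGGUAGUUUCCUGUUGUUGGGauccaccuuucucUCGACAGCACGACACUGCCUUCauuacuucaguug

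Mir196a-1 and Mir196a-2 give the same 5p arm, and their loops and 3p arms differ. Reads of miR-196a-5p therefore do not show whether the Hoxb or the Hoxc copy was transcribed, and only the 3p arms would.

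The libraries held 4049599 miR reads in replicate 1 and 5648067 in replicate 2, which were 61.9% and 73.7% of the reads listed in the tables. Abundance is given as CPM (counts per 1000000 miR reads of the library), as mean ± SD over the 2 libraries, with Wilson 95% intervals per library that cover counting error only, since the reads carry no molecular identifiers. A level of 3 reads, used as the limit for entries without a read, corresponds to 0.741 CPM for replicate 1 and to 0.531 CPM for replicate 2. Entries were counted as detected from 1 read in each library. Marker miRs were listed for several cell types and tissues. Those of germ cells had reads in both libraries for 8 of 12 names (miR-743b, miR-871, miR-880 and miR-881 were at 0). They took 0.421% and 0.175% of the miR reads. Those of smooth muscle and stroma had reads for 5 of 6 names (miR-145b was at 0) and took 4.13% and 6.26%, of which all but 0.0483% and 0.0685% was miR-143-3p. Those of epithelium (7 of 7 names) took 1.08% and 0.886%, and those of blood (6 of 6 names) 0.329% and 0.718%. Those of skeletal muscle (2 of 4 names, miR-133b at 0) took 0.00222% and 0.00239%, and those of brain (3 of 5 names, miR-137 at 0) 0.0513% and 0.0218%. In these lists and in that of germ cells, 1 entry held most of the share. Without miR-34c-5p, the germ cell list took 0.122% and 0.0433%. Without miR-141-3p, epithelium took 0.245% and 0.178%. Without the joined entry of miR-486a-5p and miR-486b-5p, blood took 0.0183% and 0.0292%. Without miR-9-5p, brain took 0.0105% and 0.00521%, and without miR-133a-3p, skeletal muscle took 0.000494% and 0.000425%.

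Nearly all reads of the Hox cluster miRs came from the 5p arms of miR-10. The share of the 11 entries was 78.0% in replicate 1 and 80.4% in replicate 2, with a mean of 79.2% ± 1.67 (SD, n = 2 libraries). Without miR-10a-5p and miR-10b-5p, the remaining 9 entries held 309 reads in replicate 1 and 368 in replicate 2, with a mean of 70.7 ± 7.88 CPM (SD, n = 2). The members thus fell into 2 abundant entries, 5 scarce entries and 4 entries without a read. Of the 11 entries, 7 had at least 1 read in each library, or 63.6%, where 20% of all 1886 entries did (378 entries). The same 7 had at least 10 reads in each library, where 12.9% of all entries did.

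The levels compared here are shares of reads, and how evenly library preparation captured different sequences was not tested. miR-10b-5p, encoded ahead of the coding part of Hoxd4, had the most reads of all miRs in both libraries. It had 2114313 reads in replicate 1, 52.2% of the miR reads (52.2% to 52.3%), and 3234876 reads in replicate 2, 57.3% (57.2% to 57.3%), a mean of 54.7% ± 3.58 (SD, n = 2). miR-10a-5p, encoded ahead of Hoxb4, was the next. It had 1044142 reads in replicate 1, 25.8% of the miR reads (25.7% to 25.8%), and 1303938 in replicate 2, 23.1% (23.1% to 23.1%), a mean of 24.4% ± 1.91 (SD, n = 2). The lower of the 2 values of miR-10b-5p lay well above the higher value of miR-10a-5p. The entry that followed, miR-143-3p, took 5.14% ± 1.49 (SD, n = 2), so miR-10a-5p stood 4.76-fold and miR-10b-5p 10.7-fold above it on the means.

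Since miR-10a-5p and miR-10b-5p were counted in the same library, their ratio is free of the library total. There were 2.02 reads of miR-10b-5p for each read of miR-10a-5p in replicate 1 (2.02 to 2.03) and 2.48 in replicate 2 (2.48 to 2.49), a mean of 2.25 ± 0.322 (SD, n = 2). miR-10b-5p led in both libraries, and the counting intervals of the ratio did not overlap between them. The share of miR-10b-5p was higher in replicate 2 and that of miR-10a-5p was lower there. The shares of the smooth muscle and stroma and of the blood markers were also higher in replicate 2, and those of the germ cell, epithelium and brain markers lower. Most of the 165 entries with at least 100 reads also had lower shares there, so a lower share alone does not set a list apart. On a log2 scale the middle one of these entries changed by -0.35. The leading entries changed by -0.24 for epithelium (miR-141-3p), -1.18 for germ cells (miR-34c-5p) and -1.30 for brain (miR-9-5p). Those of smooth muscle and stroma (miR-143-3p) and of blood (the joined miR-486 entry) changed by 0.60 and 1.15. Members of a list did not all move with its leading entry. In the epithelium list miR-205-5p changed by 0.99, and in the blood list miR-223-3p changed by -0.70. The part of the marker lists in the ratio of miR-10b-5p to miR-10a-5p was not tested. In such bulk samples, fewer cells of a type and less RNA per cell cannot be told apart.

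**Figure D2:**
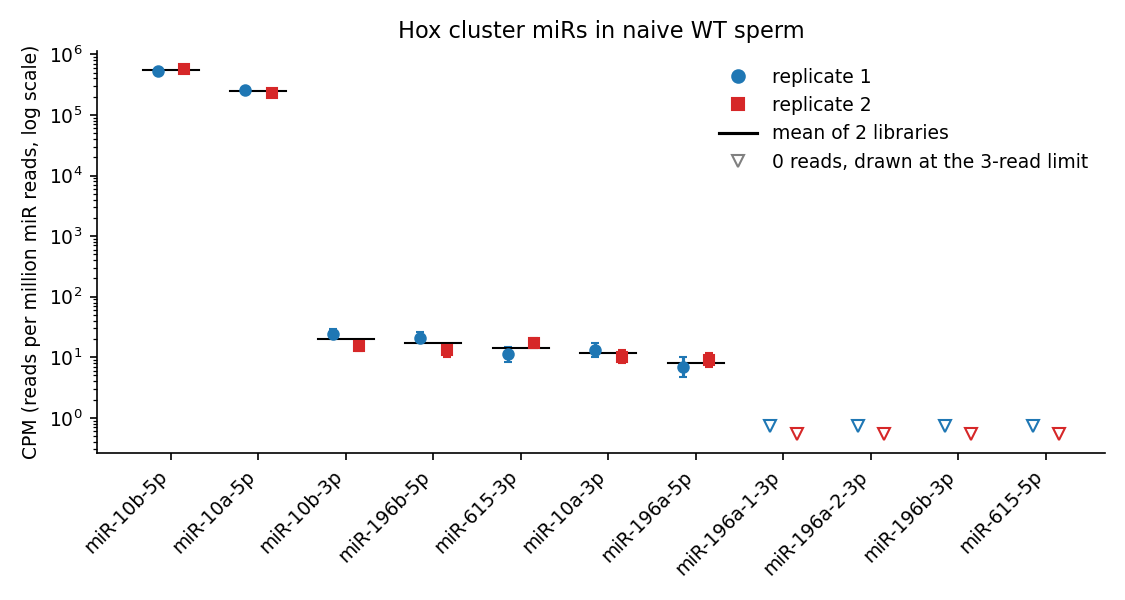
CPM of the 11 Hox cluster entries in replicate 1 (blue circles) and replicate 2 (red squares) on a log axis, with Wilson 95% intervals and the mean of the 2 libraries (black bars); open triangles mark entries with 0 reads, drawn at the level of 3 reads. The 5p arms of miR-10b and miR-10a stand far above the 5 scarce entries (miR-10a-5p is 12285-fold above miR-10b-3p), which lie between 6.91 and 24.2 CPM.

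The passenger arms of miR-10 were present in both libraries, at levels far below the 5p arms. miR-10b-3p had 98 reads in replicate 1 (24.2 CPM, 19.9 to 29.5) and 88 in replicate 2 (15.6 CPM, 12.6 to 19.2), with a mean of 19.9 ± 6.09 CPM (SD, n = 2). miR-10a-3p had 53 reads in replicate 1 (13.1 CPM, 10.007 to 17.1) and 58 in replicate 2 (10.3 CPM, 7.94 to 13.3), with a mean of 11.7 ± 1.99 CPM (SD, n = 2). For each read of the 3p arm there were 19701 reads of miR-10a-5p in replicate 1 (15063 to 25767) and 22482 in replicate 2 (17393 to 29060). For miR-10b the corresponding numbers were 21575 (17705 to 26290) and 36760 (29840 to 45285). The intervals of the 2 hairpins overlapped in replicate 1 and did not in replicate 2.

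The order of the paralogs was the same in both arms. miR-10b-3p had 1.85 reads per read of miR-10a-3p in replicate 1 (1.33 to 2.58) and 1.52 in replicate 2 (1.09 to 2.11), so miR-10b led here too. In replicate 1 the interval of the 3p ratio held the 5p ratio of 2.02, and in replicate 2 its upper bound was below the 5p ratio of 2.48. The 3p arms differ at 3 bases and the 5p arms at 1. At the depth of the 3p arms, with 53 to 98 reads each, no finer comparison was possible.

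miR-196b-5p, the product of the Hoxa cluster, had 85 reads in replicate 1 (21.0 CPM, 17.0 to 26.0) and 73 in replicate 2 (12.9 CPM, 10.3 to 16.2), with a mean of 17.0 ± 5.70 CPM (SD, n = 2). miR-196a-5p, which the Hoxb and the Hoxc copy both give, had 28 reads in replicate 1 (6.91 CPM, 4.78 to 9.99) and 51 in replicate 2 (9.03 CPM, 6.87 to 11.9), with a mean of 7.97 ± 1.496 CPM (SD, n = 2). miR-196a-5p was thus the lower of the pair in both libraries although 2 hairpins encode it. There were 0.329 reads of miR-196a-5p per read of miR-196b-5p in replicate 1 (0.216 to 0.503) and 0.699 in replicate 2 (0.489 to 0.997), a mean of 0.514 ± 0.261 (SD, n = 2). The intervals of the 2 libraries overlapped.

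For each read of a miR-196 5p arm there were 27951 reads of a miR-10 5p arm in replicate 1 (23251 to 33602) and 36603 in replicate 2 (30703 to 43638). The 2 families share the Hoxb cluster, which holds Mir10a and Mir196a-1. None of the 3 entries for the 3p arms of miR-196 had a read in either library, so the counts do not tell the Hoxb from the Hoxc copy of miR-196a. With the limit set at 3 reads, a count of 0 allows up to 0.741 CPM in replicate 1 and 0.531 CPM in replicate 2, and the Wilson upper bounds are 0.949 and 0.680 CPM.

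miR-615-3p, from the intron of Hoxc5, had 45 reads in replicate 1 (11.1 CPM, 8.31 to 14.9) and 98 in replicate 2 (17.4 CPM, 14.2 to 21.1), with a mean of 14.2 ± 4.41 CPM (SD, n = 2). Of the 5 names, only miR-615 had more reads on the 3p arm than on the 5p arm. miR-615-5p had no read in either library, with the same limits as the 3p arms of miR-196.

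Ordered by mean CPM, the members ran miR-10b-5p, miR-10a-5p, miR-10b-3p, miR-196b-5p, miR-615-3p, miR-10a-3p and miR-196a-5p. The libraries of miR-10b-5p and miR-10a-5p did not overlap, nor did those of miR-10a-5p and miR-10b-3p. From miR-10b-3p to miR-10a-3p, neighbours in the order differed by 2.55 to 2.93 CPM, less than the joint SD of each pair (4.84 to 8.35 CPM), and their libraries overlapped. miR-10a-3p and miR-196a-5p differed by 3.71 CPM, with a joint SD of 2.49 CPM, and their libraries did not overlap. Among all entries, miR-10b-3p ranked 132nd, miR-196b-5p 138th, miR-615-3p 148th, miR-10a-3p 160th and miR-196a-5p 182nd by mean CPM.

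**Figure D3:**
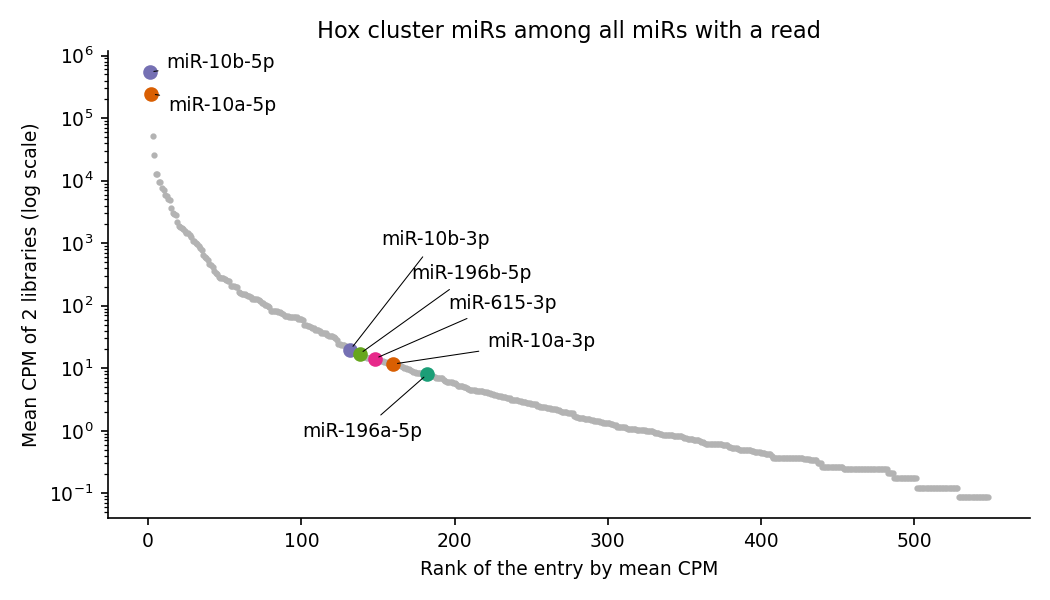
Mean CPM of every miR entry with a read (grey, log axis) against its rank, with the 7 Hox cluster entries that had reads in colour. The 5p arms of miR-10b and miR-10a hold ranks 1 and 2, and the other 5 lie between ranks 132 and 182.

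The arm that carried the reads was nearly exclusive in each of the 5 names. In miR-10a the 5p arm took 99.995% of the hairpin's reads in replicate 1 (99.993% to 99.996%) and 99.996% in replicate 2 (99.994% to 99.997%). In miR-10b it took 99.995% (99.994% to 99.996%) and 99.997% (99.997% to 99.998%). In miR-196b it took 100% of 85 reads (95.7% to 100%) and of 73 reads (95.001% to 100%), and in miR-196a 100% of 28 reads (87.9% to 100%) and of 51 reads (93.0% to 100%). In miR-615 the 5p arm took 0 of 45 reads, with a Wilson upper bound of 7.87%, and 0 of 98 reads, with one of 3.77%. Only for miR-10 was the depth enough to measure the minor arm.

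Of the 744 hairpin names with both arms listed, 136 had 100 reads or more when the libraries were summed. In these the median share of the leading arm was 99.4%, and 54 of them (39.7%) had under 0.1% of their reads on the minor arm. The 5p arm led in 78 of the 136 (57.4%). By the share of the leading arm, miR-10b ranked 37th and miR-10a 40th. Names without a read on the minor arm shared rank 1, miR-196b with 158 reads and miR-615 with 143 among them. At such depth a minor arm as scarce as that of miR-10 would not be seen, so the ranks depend on depth. Of the 54 names, 13 had a read of the minor arm in each library, both miR-10 hairpins among them.

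**Figure D4:**
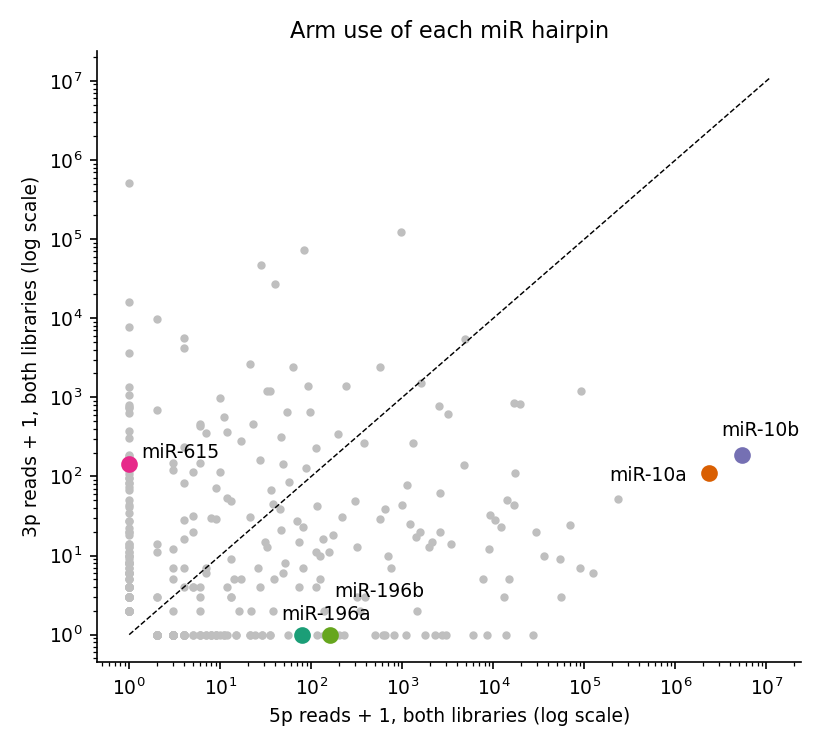
Reads of the 5p arm against reads of the 3p arm for every hairpin name with both arms listed and a read (grey), both libraries summed, plus 1, on log axes; the dashed line marks equal arms. miR-10a and miR-10b (2348080 and 5349189 5p reads) stand at the far right with 111 and 186 3p reads, miR-196a and miR-196b lie on the lower edge with none, and miR-615 lies on the left edge with none on its 5p arm.

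Grouped by seed, most miR reads had the seed ACCCUGU. Sequences were found for 1608 of the 1886 entries, which held 94.7% and 92.5% of the miR reads, and these had 1344 seeds. The entries without a sequence, miR-143-3p with 5.14% of the miR reads among them, are in no seed group, so the order of seeds holds for the matched entries only. Among these, only miR-10a-5p and miR-10b-5p had the seed ACCCUGU, and these made up 78.0% and 80.4% of all miR reads. Of the matched seeds, that of miR-191-5p came next and took 2.55% ± 1.23 (SD, n = 2), and that of let-7, which 11 entries share, took 2.25% ± 0.405 (SD, n = 2). The seed AGGUAGU was found in miR-196a-5p and miR-196b-5p only among the matched entries, and took 0.00279% and 0.00220% of the miR reads.

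The closest relatives of miR-10 by sequence are the miRs of the miR-99/100 family, and those of let-7 share a stretch of bases with miR-196. They are shown with the shared stretch in capitals.

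miR-10a-5p: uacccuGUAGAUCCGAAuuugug
miR-100-5p: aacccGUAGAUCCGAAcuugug
miR-196a-5p: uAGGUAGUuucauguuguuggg
let-7a-5p: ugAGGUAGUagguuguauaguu

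miR-10a-5p and miR-100-5p were 3 edits apart and shared a run of 11 bases, and miR-10b-5p and miR-100-5p were 4 edits apart. Their seeds differ, ACCCUGU in miR-10 and ACCCGUA in miR-100. The whole miR-196 seed AGGUAGU occurs in let-7a-5p too, but begins at base 3 there and at base 2 in miR-196. The relatives were counted at very different levels. The 6 entries of miR-99a, miR-99b and miR-100 took 0.935% and 0.931% of the miR reads, 0.933% ± 0.00307 (SD, n = 2), against 79.2% for the 4 entries of miR-10. The leading one, miR-99b-5p, had 28435 and 40544 reads, so there were 74.4 reads of miR-10b-5p for each of its reads in replicate 1 (73.5 to 75.2) and 79.8 in replicate 2 (79.0 to 80.6). With miR-125 added, the list of 11 entries took 1.49% ± 0.0599 (SD, n = 2), led by miR-99b-5p and miR-125a-5p. The 22 entries of let-7 and miR-98 took 2.26% ± 0.406 (SD, n = 2), led by let-7f-5p with 43506 and 46621 reads, against 0.00249% ± 0.000421 for the 5 entries of miR-196. In both libraries miR-10 was thus above its relatives by sequence, and miR-196 was below let-7.

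Because the miR-10 5p arms took most reads, every other miR was measured on the remaining 22.0% of the miR reads in replicate 1 (891144 reads) and 19.6% in replicate 2 (1109253 reads). With these other miR reads as the total, miR-196b-5p stood at 95.4 and 65.8 CPM, miR-196a-5p at 31.4 and 46.0 CPM and miR-615-3p at 50.5 and 88.3 CPM. The order of miR-196b-5p and miR-615-3p was opposite in the 2 libraries, and a change of total cannot alter the order within a library.

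The replicates were compared by the log2 ratio of CPM, replicate 2 over replicate 1, after 0.5 reads were added. For the 165 entries that reached 100 reads over both libraries, the median ratio was -0.35 and the quartiles were -0.71 and 0.04, so most miRs had a lower CPM in replicate 2. TMM scaling moved all ratios by 0.35 and the size factors of DESeq2 by 0.34, which brought this median to 0.00 and -0.01. More than 2-fold apart were 35 of the 165 entries (21.2%) and 0 of the 6 Hox cluster entries among them, with a median absolute ratio of 0.46 over the 165 and 0.49 over the 6.

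Relative to the median of all entries, miR-10b-5p was higher in replicate 2 by 0.48 and miR-10a-5p by 0.19. On the CPM scale their ratios were 0.13 and -0.16, so that the direction of miR-10a-5p depended on the scaling while that of miR-10b-5p did not. miR-615-3p had a ratio of 0.63 and miR-196a-5p of 0.37, while miR-196b-5p had -0.70, miR-10b-3p -0.63 and miR-10a-3p -0.35. The counting intervals of these 5 were wide, from ±0.41 to ±0.66. On the CPM scale, those of miR-10a-3p and miR-196a-5p included 0. Which intervals included 0 depended on the scaling. With TMM, those of miR-10a-3p (0.00), miR-10b-3p (-0.28) and miR-196b-5p (-0.35) did, while those of miR-196a-5p (0.72) and miR-615-3p (0.98) did not. The 2 arms of miR-10b thus moved apart, with more reads on the 5p arm per read of the 3p arm in replicate 2. Among the 74 entries outside the members with at least 1000 reads, the ratio of let-7i-5p (0.12), miR-195a-5p (0.17) and let-7e-5p (0.05) was nearest to that of miR-10b-5p, and that of miR-26a-5p, miR-182-5p and miR-100-5p (-0.16, -0.15 and -0.17) to that of miR-10a-5p. With 2 libraries such likeness rests on 1 ratio each.

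**Figure D5:**
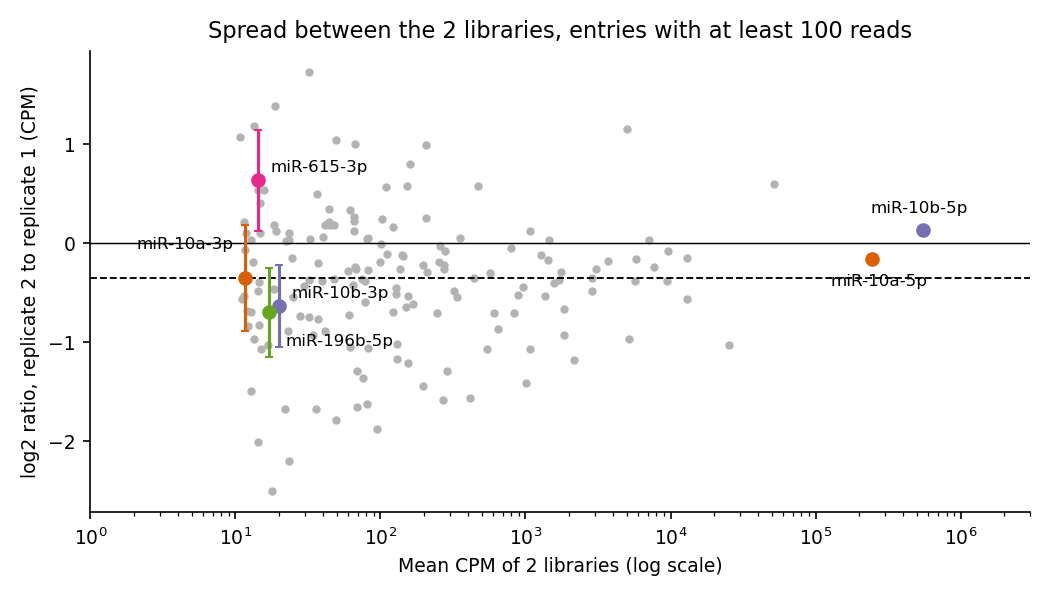
log2 ratio of CPM between replicate 2 and replicate 1 against mean CPM (log axis) for the 165 entries that reached 100 reads (grey) and the 6 Hox cluster entries among them (colour, bars are 95% counting intervals). The dashed line is the median of all entries at -0.35; miR-10b-5p lies above it by 0.48 and miR-10a-5p by 0.19.

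The 5p arms of miR-196 and of miR-10 were also set against the 3′ UTRs of the Hox genes. Hox mRNAs are known targets of miR-196. mRNA was not measured in these libraries, and the pairing describes sequence only. The longest annotated 3′ UTR of each gene was read on the mRNA strand.

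With ungapped pairing over its whole length, miR-196a-5p paired best with Hoxb8 among the 38 Hox 3′ UTRs. The site is shown as DNA of the mRNA strand, with bases in Watson-Crick pairs in capitals.

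Hoxb8 site for miR-196a-5p: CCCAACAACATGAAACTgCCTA
Hoxb8 site for miR-196b-5p: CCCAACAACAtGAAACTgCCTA

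All 22 bases of miR-196a-5p were paired there, 21 in Watson-Crick pairs and 1 as a G:U pair at position 5 of the miR, within the seed. miR-196b-5p left 1 base unpaired at the same site, position 12, the base that separates the pair. The next Hox gene for miR-196a-5p had 19 paired bases, of which 11 were Watson-Crick pairs. The best sites of miR-10a-5p and miR-10b-5p had 18 of 23 bases paired, of which 11 and 12 were Watson-Crick pairs. In these libraries miR-196a-5p had 28 and 51 reads, the lowest of the detected members.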

How the data were processed

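Small RNA was sequenced from naive WT sperm in 2 libraries. The authors trimmed low-quality ends, removed 3′ adapters with cutadapt 1.8.1, dropped reads under 15 nucleotides and mapped with Bowtie 1.1.2, first without mismatches to miR and piRNA sequences. The submitters' processing notes also name HTSeq and the builds mm10 and GRCm38. The miR annotation release is not given in the sources used here. The authors deposited whole-number read counts per mature miR entry, not normalized and not pooled; 12 entries join several names. Later mapping steps allowed 1 mismatch, and the step that gave the counts is not stated in the sources used here. A sequencing error at the base that separates 2 paralogs could move a read between them. The 5 summary entries, of which only reads assigned to no miR (38.1% and 26.3% of the listed reads) were above 0, were left out of totals.

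CPM, Wilson 95% intervals, ratios and sequence comparisons were computed in Python 3.11.15 with numpy 2.4.6, pandas 2.3.3 and scipy 1.17.1. TMM (edgeR 4.0.16) and size factors (DESeq2 1.42.0, R 4.3.3) were alternative scalings, and the scaling and intervals were tested on simulated data. Plots were drawn with matplotlib 3.10.9. With 1 condition, no test between conditions was possible. The members and lists were chosen with earlier results of these data known. The text names all entries of the 5 miRs, at most 3 leading entries of each related list, and the 3 entries nearest in replicate ratio to each miR-10 5p arm. The Hox 3′ UTR comparison was added after the counts were seen. 3′ UTRs (GENCODE, GRCm38) of at least 50 bases were used, 1 per gene. Seed matches in Hox 3′ UTRs are not reported here.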

Additional observations from a re-analysis of the deposited data

How the results depend on the processing

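The levels of the Hox cluster miRs depended mainly on the denominator. With all listed reads in place of miR reads, the share of the Hox cluster miRs was 53.7% in place of 79.2%, that of miR-10b-5p 37.2% in place of 54.7% and that of miR-10a-5p 16.5% in place of 24.4%, and miR-196a-5p stood at 5.47 and miR-196b-5p at 11.3 CPM. With the miR reads outside the miR-10 5p arms as the total, miR-196a-5p stood at 38.7 CPM, miR-196b-5p at 80.6 CPM and miR-615-3p at 69.4 CPM. These moves follow from the denominators. Of the 11 entries, 7 passed read minimums of up to 20 in each library, 6 passed 10 CPM and 2 passed 100 reads. Pooled libraries, equal-depth thinning, summed arms and either scaling moved the shares, CPM values and read ratios they were applied to by less than 1 SD. A single library always lies within 1 SD of the mean of 2, so those ranges show no stability: 78.0% to 80.4% for all members, 52.2% to 57.3% for miR-10b-5p, 23.1% to 25.8% for miR-10a-5p, 2.02 to 2.48 for miR-10b-5p per miR-10a-5p and 0.329 to 0.699 for miR-196a-5p per miR-196b-5p. The log2 ratio between replicates of miR-10a-5p, -0.16, became 0.19 with TMM and 0.18 with DESeq2, that of miR-10b-5p, 0.13, became 0.48 with both, and the median of all entries, -0.35, became 0.0018 with TMM and, without a filter on low counts, -0.46. A pseudocount of 1 read changed no direction among the 7 detected members. No paired analysis was possible because there is 1 group. Reads limit the scarce entries: 28 to 98 per library.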
